A study of Mus musculus with 36 samples.

Results

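The comparison described here sets single-strand breaks (SSBs) against apurinic/apyrimidinic (AP) sites in bone marrow of 24-month-old male C57BL/6J mice. Its members are 4 libraries, 2 of SSBs and 2 of AP sites, out of 24 SSB and AP site libraries of 6 tissues, chosen by tissue and assay label. The 36 samples of the whole series also include RNA libraries, which are not analysed here. The marrow came from 2 mice, with red cells lysed before freezing, and the labels state that each SSB library and the AP library of the same number were made from the same marrow sample. All 4 libraries share strain, sex, age and DNA kit, and none is treated. The tissue is a mixture of cell types, and the lists hold no expression values against which marker genes could be checked. Each line of a list is 1 nucleotide position with a strand and a raw count, and each position was counted once. The SSB libraries held 458672 and 236000 positions and the AP libraries 564343 and 945695, and the shallow SSB replicate 2 limits every comparison of single genes.

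An SSB is an interruption of a single DNA strand, and it arises from oxidised sugars, topoisomerase cleavage and as an intermediate of repair. An AP site is a sugar left without its base, made by spontaneous loss of purines or by glycosylases such as Ung and Ogg1, and it is cut into an SSB by the endonuclease Apex1. Parp1, Xrcc1 and Lig3 then process and seal the break. Bone marrow makes red cells, granulocytes and B cells from stem cells. Since both lesions were read from the same marrow sample, AP sites served as the reference for copy number and mappability of each locus, and shares of positions were compared per gene, gene start, gene end and 100 kb window.

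The sequences below show what the listed nucleotides look like. Only 437 positions were shared by the 2 SSB libraries, which is 0.0953% of replicate 1 and 0.185% of replicate 2, and 2234 by the 2 AP libraries. Within RefSeq promoters of GRCm38.p6, 19 nucleotides were listed in both SSB libraries and 12 in both AP libraries. A few of them are printed 5′ to 3′ on the listed strand with 10 bases on each side and the listed base in capitals. The distance between a listed position and the damaged nucleotide is not given for either assay in the sources used here, so bases are described relative to the listed position, and the same offset may mean different places in the 2 assays. The sequences show the cytosine that often stands before a listed SSB position. They also show the adenine or guanine often listed for an AP site over all promoter positions. They were chosen after their values were seen, and none of the 4 AP nucleotides listed as C is printed.
SSB, Klhl7 promoter, chr5:24100599-24100619, minus strand: ggttgcaagcGaagggagtcc
SSB, Ccni promoter, chr5:93206546-93206566, minus strand: gtgggacaccGgaggtggcca
SSB, Hsbp1 promoter, chr8:119344415-119344435, minus strand: gccacgcaccGgaaggtccta
SSB, Phf12 promoter, chr11:77982645-77982665, plus strand: ggcttctgggCtccgggcgaa
SSB, Fdxr promoter, chr11:115277009-115277029, plus strand: ctcgcctcccGcttgcttaga
SSB, Add3 promoter, chr19:53140239-53140259, minus strand: ggttaattgcCaaaataaagc
AP, Mpv17 promoter, chr5:31154288-31154308, minus strand: cttgtgtccaAacaacagccc
AP, Ces5a promoter, chr8:93536024-93536044, plus strand: cacagatgccAtgtgggtcag
AP, Myo1c promoter, chr11:75650493-75650513, plus strand: ccctctggccAagagacctcc
AP, Sfxn4 promoter, chr19:60861415-60861435, plus strand: tgcaggccccGtttgctttgc
Of the 19 SSB nucleotides, 8 were C, 8 G, 3 T and 0 A, and 13 followed a C. Of the 12 AP nucleotides, 6 were A, 4 C, 2 G and 0 T, and 8 had a C at the base before the preceding one.

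Similar bases stood out over all positions within promoters, except that G and not C came second to A for AP sites. The positions numbered 7990 and 3427 for SSBs and 4527 and 7192 for AP sites. A was the listed base in the SSB libraries in 4.46% and 4.79% of cases, against 23.3% A among all promoter bases, whereas C made up 37.8% and 38.3% and G 38.4% and 37.0%, against 26.7% each. The base just before a listed SSB position was C in 55.0% and 56.0%. For AP sites, the listed base was A in 37.6% and 40.3%, G in 36.5% and 36.3% and C in 16.8% and 14.6%. At the base before the preceding one, C stood in 56.6% and 52.8%. For a listed A, a listed C and a C just before the listed position, both replicates of an assay lay on the same side of both replicates of the other. The shares of a listed G were close in the 4 libraries.

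**Figure D1:**
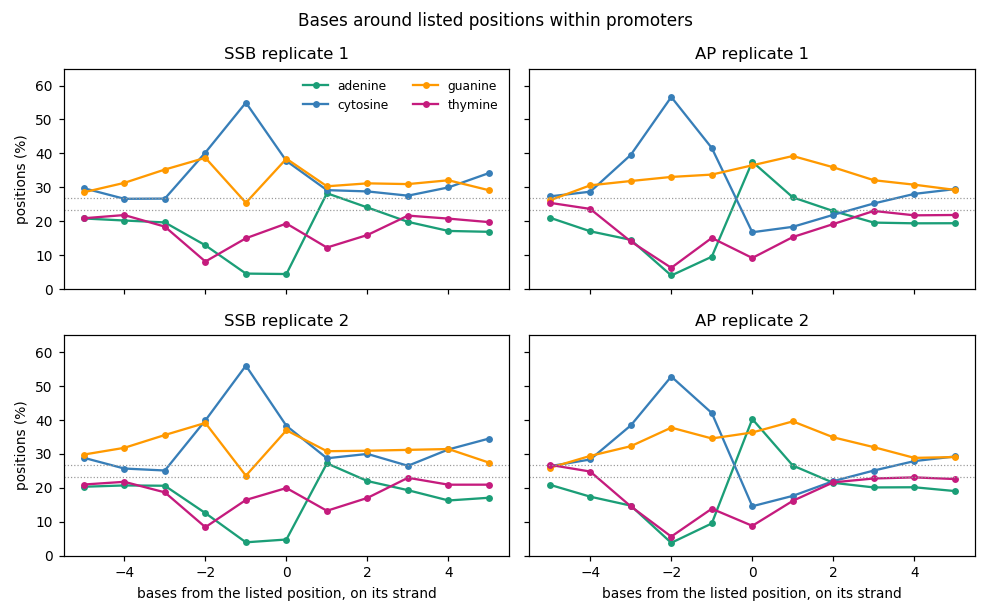
Share in percent of adenine, cytosine, guanine and thymine at the listed position (0) and at the bases before (negative) and after it, read on the listed strand, for bone marrow positions within RefSeq promoters, with 1 panel for each library. Dotted lines are the shares among all promoter bases (23.3% for adenine and thymine, 26.7% for cytosine and guanine); cytosine peaks 1 base before the listed position in SSB libraries and 2 bases before it in AP libraries, in both replicates.

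SSBs were more concentrated than AP sites around gene starts in both pairs. The density within 1 kb of the start, relative to that 50 to 100 kb away, was 2.27 and 2.08 in the SSB libraries (mean 2.18 ± 0.132, SD, n = 2). It was 1.52 and 1.51 in the AP libraries (mean 1.51 ± 0.00979, SD, n = 2), so that the groups did not overlap, and the ratio of the means was 1.44. With 2 libraries against 2, an exact two-sided permutation test cannot go below p = 0.333, which is the value it gave. The values differed most near the start itself. In the 250 bp after it, the relative density was 3.31 and 2.91 for SSBs and 1.89 and 1.81 for AP sites, while from 1500 to 1750 bp after it the values were 1.33, 1.35, 1.28 and 1.25.

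**Figure D2:**
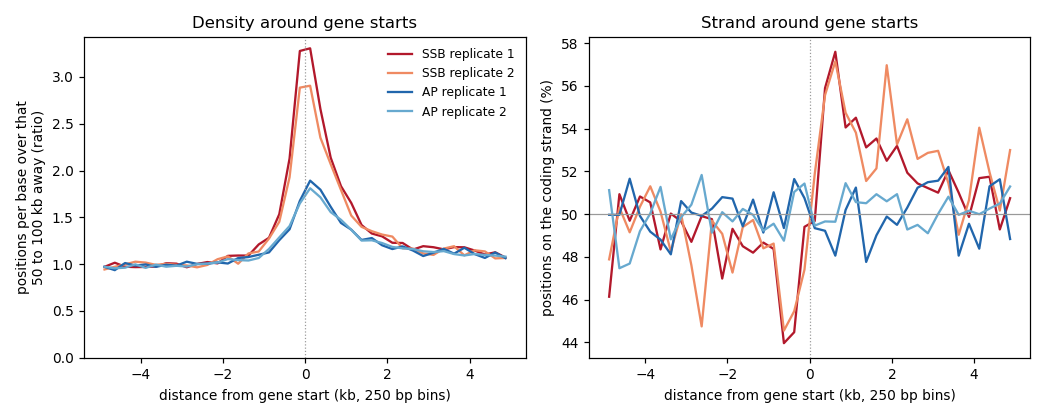
Left, number of positions per base relative to that 50 to 100 kb away, in 250 bp bins by distance from gene starts in kb; right, percent of positions listed on the coding strand. Each line is 1 bone marrow library; both SSB lines rise above both AP lines near the start, and the SSB lines change strand, from 44.0% and 44.6% in the bin from 750 bp before the start to 57.6% and 57.2% in the bin from 500 bp after it.

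The strand of SSBs changed at the gene start, and that of AP sites stayed near even. In the 1 kb before the start, 47.0% and 46.6% of SSB positions lay on the coding strand, and in the 1 kb after it 53.9% and 54.6%. The AP values were 50.7% and 50.3% before and 49.2% and 50.01% after. Over whole genes on 1 strand, the coding strand held 52.5% and 53.3% of SSBs and 50.1% and 50.4% of AP sites, a difference of 2.63 percentage points (SD 0.374 between the differences of the 2 pairs). All 12 same-numbered pairs of the 6 tissues had a positive difference, and the 10 pairs of the other tissues averaged 3.79 points, with a range of 2.39 to 4.99 points, and the marrow pairs had 2.37 and 2.89 (exact permutation test of 2 against 10 pairs, two-sided p = 0.152, adjusted p = 0.263 over 26 measures). At gene ends the SSB strand share was also high. In the last 250 bp of genes 58.5% and 56.4% of SSBs were on the coding strand, against 51.1% and 50.5% of AP sites, and in the next 250 bp beyond the end 48.3% and 49.6% against 48.1% and 47.5%.

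Density at gene ends was nearly the same for both lesions. It was 1.31 and 1.32 for SSBs and 1.30 and 1.31 for AP sites, a ratio of 1.007, with overlapping groups, and with protein-coding genes alone the ratio was 0.975. The excess of SSBs at starts was next compared with that in the other tissues. On the log2 scale, the SSB to AP ratio of start density was 0.58 and 0.47 in the marrow pairs, 0.45 and 0.45 in heart, 0.44 and 0.35 in liver, and 0.06 to 0.29 in brain, peripheral blood mononuclear cell (PBMC) and sperm pairs. The test of 2 marrow pairs against 10 others gave an exact permutation p = 0.0606 (two-sided, adjusted p = 0.197), so the difference from the other tissues did not pass. That test counts the 10 other pairs as independent, although they are 2 pairs from each of 5 tissues. Both marrow values were above those of all 10 other pairs.

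**Figure D3:**
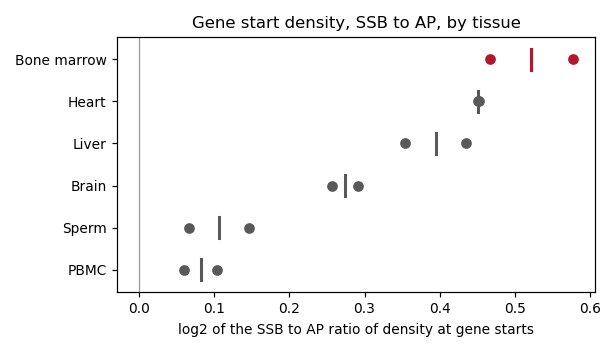
Log2 of the SSB to AP ratio of the density within 1 kb of gene starts, for 6 tissues; each point is 1 same-numbered pair of libraries and each bar the mean of 2 pairs. Every pair lies above 0, and the marrow pairs (0.58 and 0.47) lie furthest to the right.

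The SSB to AP ratio rose with the number of CpG dinucleotides (a C followed by a G) in a promoter. CpG-rich promoters are typical of broadly active genes. The 32817 promoters of 300 bases, from 250 before to 50 after the start, were put in 3 classes of CpG number. In the 10819 promoters with 16 to 67 CpGs, lesion density (LPKM, positions per kb of sequence and per 1000000 positions of the library) was 3.76 and 2.93 for SSBs and 1.04 and 0.939 for AP sites. The ratio was 3.62 in pair 1 and 3.12 in pair 2. In the 9503 promoters with 5 to 15 CpGs the SSB values were 1.77 and 1.54, and those of AP sites 1.04 and 1.04. In the 12495 promoters with 0 to 4 CpGs SSB density was 0.671 and 0.667 and AP density 0.644 and 0.625, with ratios of 1.04 and 1.07. SSB density rose from class to class in both replicates, whereas AP density was no higher in the CpG-rich class than in the middle one. In the 10 other pairs the ratio of the CpG-rich class was 1.05 to 3.16, so pair 1 of marrow lay above that range and pair 2 within it. CpG number moves with base composition (median GC 45.0%, 52.3% and 65.7%), and their parts in the ratio were not tested.

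No single start window passed the test. Of 1129 windows of 1 kb on each side of a start with at least 10 positions, 0% were called higher and 0% lower in SSBs (edgeR quasi-likelihood test, Benjamini-Hochberg adjustment), with 60 at an unadjusted p under 0.05. DESeq2 also called 0, with 8 at an unadjusted p under 0.05. The TMM factors used there were 1.47 and 1.46 for SSBs and 0.70 and 0.66 for AP sites, so that each window was compared with the general excess at starts. Without these factors, 198 windows had an unadjusted p under 0.05 and 0 passed. The windows of smallest p rest on few positions. At Mpdu1, needed for the sugar donors of protein glycosylation, SSBs had 7 and 5 positions and AP sites 0 and 0. That is at least 8.69-fold higher against 3 positions over the AP group, with an adjusted p of 0.719. At Tufm, the mitochondrial translation elongation factor, the counts were 9, 4, 0 and 1 (SSB replicates 1 and 2, AP replicates 1 and 2), and at Arhgap21 7, 3, 0 and 0. In the other direction stood Gm21885 with 1, 0, 4 and 8, and Capn3, a muscle calpain, and Gm39443, each with 0, 0, 5 and 5. These 6 windows were picked for small p, and none passed.

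The 250 bases before an annotated start of 4 of these genes, from RefSeq on GRCm38.p6, show where the listed bases fall among CpGs. Every listed base is in capitals, whichever strand it was listed on. In Mpdu1 and Tufm all capitals are SSB positions, 1 and 2 for Mpdu1 and 4 and 2 for Tufm, the latter at 5 nucleotides. In Gm21885 and Capn3 all are AP positions, 1 and 1 and then 0 and 2. The 4 stretches hold 16, 16, 1 and 4 CpGs in the order printed, and the same stretches of Arhgap21 and Gm39443, which are not printed, hold 10 and 9. For Tufm and Arhgap21 the stretch belongs to a start within the gene, downstream of the centre of the tested window.
Mpdu1, chr11:69662650-69662899, minus strand: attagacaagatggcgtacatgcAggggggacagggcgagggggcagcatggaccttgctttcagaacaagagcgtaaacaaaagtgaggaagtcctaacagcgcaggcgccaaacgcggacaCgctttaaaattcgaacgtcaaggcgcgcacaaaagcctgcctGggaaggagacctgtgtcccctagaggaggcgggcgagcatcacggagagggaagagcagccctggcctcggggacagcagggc
Tufm, chr7:126487105-126487354, plus strand: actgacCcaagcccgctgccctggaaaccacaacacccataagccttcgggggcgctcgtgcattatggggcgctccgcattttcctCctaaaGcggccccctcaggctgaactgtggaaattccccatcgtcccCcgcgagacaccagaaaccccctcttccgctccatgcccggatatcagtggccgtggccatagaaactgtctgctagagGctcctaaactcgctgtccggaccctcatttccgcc
Gm21885, chr11:94281589-94281838, plus strand: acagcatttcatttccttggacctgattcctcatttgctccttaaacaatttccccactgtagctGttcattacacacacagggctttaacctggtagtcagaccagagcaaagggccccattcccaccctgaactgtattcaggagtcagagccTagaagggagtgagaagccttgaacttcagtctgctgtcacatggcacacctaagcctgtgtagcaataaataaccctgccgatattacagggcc
Capn3, chr2:120463343-120463592, plus strand: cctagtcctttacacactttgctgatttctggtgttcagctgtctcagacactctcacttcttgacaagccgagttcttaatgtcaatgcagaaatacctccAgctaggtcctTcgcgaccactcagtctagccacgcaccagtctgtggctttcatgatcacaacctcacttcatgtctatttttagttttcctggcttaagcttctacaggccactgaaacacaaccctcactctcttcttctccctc

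Fewer gene end windows held enough positions. Of 458 tested, 0% were called higher and 0% lower, with 37 at an unadjusted p under 0.05 (DESeq2: 0 called, 10 at an unadjusted p under 0.05). The smallest p values were those of Ubtd1 (6, 3, 1 and 0 positions, in the same order), Card9, an adaptor of innate immune signalling, and Pip5k1c, a phosphoinositide kinase (8, 1, 0 and 1 each). On the side of AP sites they were those of Cep43, a centrosomal protein gene (0, 0, 6 and 5), D330050I16Rik (0, 0, 4 and 7) and Ecm1, which encodes an extracellular matrix protein (0, 0, 2 and 9). The window of Tsga10ip overlaps nearly all of that of D330050I16Rik, holds the same positions with an equal p, and was not counted apart. The adjusted p of all 6 was 0.202.

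The 100 kb windows gave more calls. Of 25090 windows with at least 10 positions, 75 were higher in SSBs (0.299%) and 8 lower (0.0319%) in edgeR's quasi-likelihood test. With the marrow sample as a replicate block, 49 and 4 passed, all 53 of them among the 83 called without it. DESeq2 called 0, with 402 at an unadjusted p under 0.05 against 2293 in edgeR. Leaving out SSB replicate 1 or AP replicate 2 left 1 window called, that on chromosome 17 described next. The 75 windows lay on 15 chromosomes and were rich in genes, with a median of 7 genes against 2 over all windows tested, and 71 of them (94.7%) held at least 3 genes against 37.8% of all. They also held a median of 173 positions against 81 over all windows tested, and windows with more positions are easier to call. The part of depth in their gene number was not tested. The 8 lower windows had a median of 2 genes and 108 positions.

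The smallest p was that of the window chr17:39800001-39900000, which holds Rn18s-rs5 and AY036118, sequences related to ribosomal RNA. It had 1055 and 1174 SSB positions per 1000000 positions of the library (PPM) and 489 and 306 PPM of AP sites, 2.93-fold higher in SSBs (log2 1.55 ± 0.13, SE, adjusted p = 8.16e-28). Ribosomal RNA genes exist in near-identical copies, so the count at this window is uncertain. The neighbouring windows chr10:79900001-80000000, chr10:80000001-80100000 and chr10:80100001-80200000 were all called. The first holds Arid3a, a transcription factor of B cells, Cnn2 and Med16 and had 172 and 144 SSB against 70.9 and 65.6 AP PPM (log2 1.30 ± 0.21, adjusted p = 8.57e-06). The second holds Gpx4, which detoxifies lipid peroxides, and Polr2e, an RNA polymerase subunit, with 183 and 157 against 92.1 and 87.8. The third holds Stk11, an energy-sensing kinase, and Cirbp, with 205 and 140 against 106 and 85.7. In each of these 3 windows both SSB values were above both AP values.

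The window chr4:135800001-135900000 holds Srsf10, a splicing factor, Pnrc2 and Cnr2, a cannabinoid receptor of immune cells. It had 113 and 76.3 SSB against 47.8 and 33.8 AP PPM (log2 1.39 ± 0.26, adjusted p = 0.000811). The window chr2:156100001-156200000, with Rbm39, a splicing factor, and Romo1, had 76.3 and 67.8 against 28.4 and 22.2 (log2 1.61 ± 0.31, adjusted p = 0.00127). Next came chr2:152700001-152800000, with Bcl2l1, which keeps blood cells alive, and Id1, at 124 and 93.2 against 51.4 and 48.6. Further gene-dense windows were chr11:69900001-70000000, with Eif5a and Gabarap, and chr7:19700001-19800000, with Apoe and Tomm40. The first had 124 and 174 SSB against 72.7 and 65.6 AP PPM, and the second 118 and 93.2 against 47.8 and 47.6. The window chr13:119500001-119600000, which holds Tmem267 alone, had 43.6 and 55.1 against 10.6 and 8.46. The replicate block kept all 10 windows of this group under an adjusted p of 0.05.

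Among the 8 windows with a lower share of SSBs were 2 within Sorcs3, a sorting receptor of neurons. At chr19:48500001-48600000 there were 24.0 and 21.2 SSB against 63.8 and 63.4 AP PPM (log2 -1.42 ± 0.35, adjusted p = 0.0267), and at chr19:48600001-48700000 26.2 and 25.4 against 63.8 and 67.7. A window within Dscam, a neuronal adhesion molecule (chr16:96600001-96700000), had 43.6 and 29.7 against 74.4 and 96.2. The window chr9:95400001-95500000, with Chst2 and U2surp, had 19.6 and 25.4 against 76.2 and 52.9. At chr4:114100001-114200000, which holds Skint11 and Gm15741, SSBs had 0 positions in both libraries and AP sites 9 and 18, at least 4.14-fold lower against 3 positions over the SSB group. The other 3 held Gm39368 and neighbours (chromosome 9), Gm30620 and Gm6078 (chromosome 18) and Pabpc6 (chromosome 17). With the replicate block, 4 of the 8 passed. Those with Dscam (adjusted p = 0.0694), Gm30620 (0.0550), the second part of Sorcs3 (0.0711) and Pabpc6 (0.0772) did not.

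Over all windows, the SSB to AP ratio was read by gene number. Windows without a gene took 7.27% and 7.997% of SSBs and 8.05% and 8.49% of AP sites, ratios of 0.903 and 0.942 in the 2 pairs. Windows with 6 to 9 genes took 12.2% and 11.3% against 10.5% and 9.95%, ratios of 1.17 and 1.14. For the 346 windows with 10 or more genes the ratios were 1.27 and 1.24. The ratio rose with each class in both pairs. It fell with gene length. Protein-coding genes under 20 kb had ratios of 1.21 and 1.17, those of 20 to 100 kb 1.08 and 1.07, those of 100 to 500 kb 0.967 and 0.971, and those over 500 kb 0.895 and 0.902. In the 10 other pairs the ratio ran from 0.901 to 1.09 for genes over 500 kb and from 0.885 to 1.25 for genes under 20 kb, and pair 1 of marrow lay below the first range. All genes together took 63.4% and 62.5% of SSBs and 62.3% and 61.9% of AP sites, a ratio of 1.01 (exact permutation p = 0.333, two-sided, the smallest possible). By chromosome the shares were close. Chromosome 17 had 4.39% and 4.27% against 4.15% and 4.05%, chromosome 11 6.60% and 6.34% against 6.25% and 6.04%, and chromosome 13 4.50% and 4.48% against 4.69% and 4.75%. None of the 26 single measures passed the test of the marrow pairs against the 10 others after adjustment, the smallest adjusted p being 0.158.

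**Figure D4:**
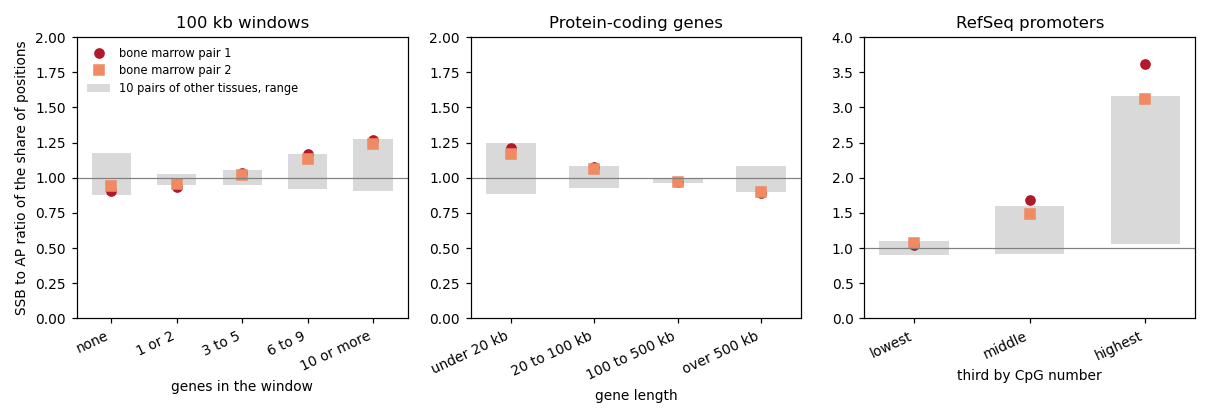
SSB to AP ratio of the share of positions, by number of genes in 100 kb windows (left), length of protein-coding genes (middle) and CpG number of RefSeq promoters (right, other vertical scale). Points are the 2 bone marrow pairs and grey bars span the 10 pairs of other tissues; in marrow the ratio rises with gene number and CpG number and falls with gene length.

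Of single genes, 2 of 22861 were higher in SSBs (0.00875%) and 0% lower in edgeR's quasi-likelihood test, with 1763 at an unadjusted p under 0.05. DESeq2 called 0, with 339 at an unadjusted p under 0.05. AY036118, within the chromosome 17 window above (chr17:39848112-39898385), had an LPKM of 2.99 and 2.78 for SSBs and 1.27 and 0.736 for AP sites (log2 1.54 ± 0.23, SE, adjusted p = 0.00496). Tmem267, a membrane protein gene (chr13:119488086-119610459), had 0.748 and 0.762 against 0.203 and 0.225 (log2 1.70 ± 0.27, adjusted p = 0.00757). In both genes the SSB values lay above both AP values. Over the alternatives, the adjusted p ran from 1.48e-06 to 0.930 for AY036118 and from 7.52e-05 to 0.930 for Tmem267. Leaving out SSB replicate 1, AP replicate 1 or AP replicate 2 left 0 genes called in each case.

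With the replicate block, which compares the lesions within each marrow sample, 9 genes were higher (0.0394%) and 21 lower (0.0919%) in SSBs, AY036118 and Tmem267 among them. Next by p among higher genes was Rgl2, an activator of Ral GTPases, with 19 and 10 SSB and 3 and 9 AP positions (log2 2.27 ± 0.45, adjusted p = 0.130, 0.00519 with the block). The 3 genes of smallest p for lower values, none of which passed, are known from neurons. Rbfox1, a splicing factor of neurons and among the longest genes, had an LPKM of 0.395 and 0.397 for SSBs and 0.549 and 0.502 for AP sites (log2 -0.49 ± 0.10, adjusted p = 0.139, 7.52e-05 with the block). Kcnb2, a potassium channel, had 0.205 and 0.291 against 0.438 and 0.407 (log2 -0.92 ± 0.19, adjusted p = 0.139, 0.00519 with the block). Olfm3, a secreted protein of brain and retina, had 0.0688 and 0.153 against 0.272 and 0.310 (log2 -1.68 ± 0.35, adjusted p = 0.145, 0.0243 with the block). In all 3 the SSB values lay below both AP values.

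Whether the marrow differed from the other tissues was tested gene by gene, as the SSB to AP log2 ratio of marrow minus the mean of 5 tissues. Of 22861 genes 1 passed (0.00437%), Olfm3, lower in marrow by 2.03 on the log2 scale (SE 0.38, adjusted p = 0.00155). It had 15.3 and 33.9 SSB PPM in marrow against 53.3 to 90.7 in the 10 other SSB libraries. In AP sites it had 60.2 and 68.7 in marrow against 40.0 to 60.4. Of the windows 0% passed. There were 1613 at an unadjusted p under 0.05, and the smallest adjusted p was 0.0815, that of the Srsf10 and Cnr2 window on chromosome 4 (log2 1.37 ± 0.29 above the other tissues). Of the 75 windows called higher in marrow, 74 had a positive difference from the other tissues, with a median of 0.73. That choice used the marrow libraries themselves. AY036118 and Tmem267 gave no call here (log2 0.57 ± 0.26 and -0.06 ± 0.33, adjusted p = 0.846 and 0.9998). The next windows, with Sgsm3 and Mrtfa (log2 1.12) and with Tgm2 (log2 1.05), had an adjusted p of 0.280. The next genes by p did not pass either. Among them were Pdhb, Mrtfa, Iba57, Denr and Nme2, with higher ratios in marrow, and Kcnb2, Lrrc7 and Greb1, with lower ones, at adjusted p of 0.263 to 0.399.

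Of the 16 gene lists none held a gene called in the edgeR test without the block, where 0.00875% of all genes were higher and 0% lower. Over all genes tested the median log2 SSB to AP ratio was -0.03 and 48.4% were above 0, and the start windows together had SSB to AP ratios of 1.62 and 1.48 in the 2 pairs. Of 32 long neuronal and fragile site genes, 5 had a log2 ratio above 0 (median -0.24), and 16 had a ratio below 0 at an unadjusted p under 0.05, as did 4.17% of all genes. Long genes hold more positions than most genes, so a small p is easier to reach for them. The summed share of the list was 12798 and 13771 SSB and 14387 and 14925 AP PPM, without overlap. Its ratios of 0.890 and 0.923 were close to the 0.895 and 0.902 of all protein-coding genes over 500 kb. Rbfox1, Lsamp, an adhesion molecule, and Csmd1, a complement regulator, had the most positions. With the replicate block Rbfox1 and Csmd1 passed (2 of 32, against 0.0919%). At the summed starts of the whole list the ratios were 1.01 and 1.04, from 14 and 7 SSB and 17 and 27 AP positions.

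Housekeeping genes had a median log2 ratio of 0.42 over whole genes (11 of 16 tested above 0) and start ratios of 2.33 and 3.41. Ribosomal protein genes had a median of 0.50 (23 of 31 tested above 0, out of 81 listed) and summed whole-gene ratios of 1.74 and 1.09. Their start ratios were 2.41 and 2.21, from 145 and 59 SSB and 74 and 107 AP positions. Immediate early genes, which respond first to stimuli, had a median of 0.29 and start ratios of 2.92 and 1.72. Zinc finger Zfp genes had 1.77 and 1.95 at starts and a median of 0.03 over whole genes. Replication-dependent histone genes had start ratios of 1.58 and 1.22. The 4 of 64 with enough positions had a median of 0.71 over whole genes. The summed positions of all 64 gave ratios of 1.89 and 0.862, so the pairs differed in direction. Of all RefSeq genes, 1.1% overlapped a window called higher and 0.034% one called lower. Of the housekeeping genes 4 of 23 did so in the first set (Actb, Hsp90ab1, Tuba1b and Tubb5), and of the immediate early genes 3 of 25 (Fosb, Ier3 and Jund). Of the Zfp genes 6 of 394 did so.

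Of the blood lineage lists, erythroid genes had a median of 0.21 (13 of 18 above 0), and their starts held 43.6 and 50.8 SSB against 24.8 and 23.3 AP PPM. These values came from 20 and 12 SSB and 14 and 22 AP positions only. The start ratios were 1.76 and 2.19, against 1.62 and 1.48 for all starts. In the other SSB libraries the same starts held 19.4 to 49.3 PPM. The erythroid members with most positions, the membrane skeleton genes Ank1, Sptb and Epb41, had log2 ratios of -0.18, 0.13 and 0.05. Neutrophil and monocyte genes had a median of 0.03 and summed values of 349 and 322 SSB against 273 and 242 AP PPM, and Itgb2, the leukocyte integrin beta chain, had 0.40. B lineage genes had a median of 0.09 and start ratios of 1.09 and 0.92, from 24 and 6 SSB positions only, and the regulators Aff3, Ebf1 and Bach2 had -0.29, -0.17 and -0.17. Epor, the erythropoietin receptor, and Cd79a, a B cell receptor chain, overlapped windows called higher, 1 gene in each list. Stem and progenitor cell genes had a median of -0.01, with Prdm16, Mecom and Runx1 at -0.11, -0.33 and -0.04. Of the antigen receptor loci, 3 of 10 tested had a log2 ratio above 0, with a range of -0.40 to 0.98. Igh had -0.22 (unadjusted p = 0.0414), Igk -0.17 and Tcra -0.28 (unadjusted p = 0.0262), with adjusted p of 0.591 to 0.738.

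The base excision and single-strand break repair list had a median of 0.05, with 14 of 27 above 0, and start ratios of 1.89 and 1.75. Tdp1, which removes topoisomerase from break ends, had 0.05, Parp1, the break sensor, -0.41, and Lig1, the replicative ligase, 0.52, and none passed. Topoisomerase and replication genes had a median of -0.10 and start ratios of 2.05 and 1.72, with Pola1, Atm and Brca1 at -0.04, 0.01 and -0.21. Lists of genes typical of other organs followed. Vomeronasal receptor genes had start ratios of 0.61 and 0.77 and summed 501 and 517 SSB against 657 and 659 AP PPM over whole genes. Their median was -0.19, with 16 of 45 tested above 0. Olfactory receptor genes had start ratios of 0.92 and 0.98, and the 19 of 1110 with enough positions had a median of 0.21 over whole genes, with 11 above 0. The summed positions of all 1110 gave whole-gene ratios of 0.966 and 0.996. Hepatocyte genes had start ratios of 0.74 and 1.43, from 12 and 10 SSB positions. Their median was -0.39 over whole genes, with Hnf4a, Cps1 and Ass1 at 0.25, -0.76 and -0.24.

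**Figure D5:**
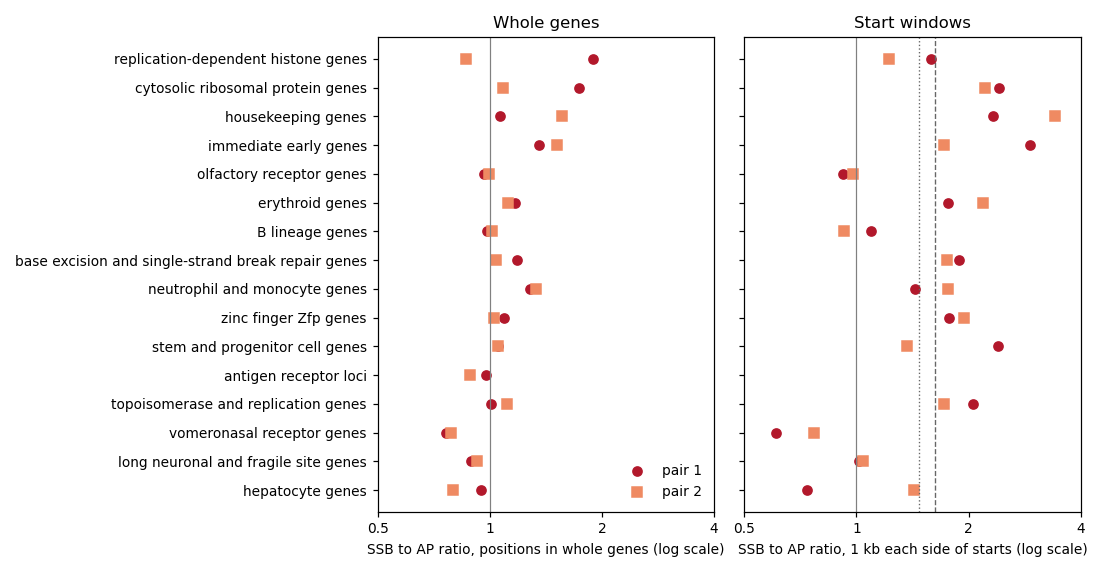
SSB to AP ratio of the summed positions of 16 gene lists in the 2 bone marrow pairs, over whole genes (left) and within 1 kb of gene starts (right), on log scales, ordered by median log2 ratio of whole genes. Dashed and dotted lines mark all gene starts (1.62 in pair 1, 1.48 in pair 2). Housekeeping, ribosomal protein, immediate early, erythroid, repair, topoisomerase and replication, and Zfp genes lie to the right of them in both pairs. Vomeronasal and olfactory receptor genes lie below 1, and the antigen receptor loci have no start window.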

How the data were processed

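SSBs were profiled with SSiNGLe and AP sites with SSiNGLe-AP by the authors, who deposited for each library the positions, strands and raw counts of lesions, without normalization or pooling. The aligner and filters for these lists are not given in the sources used here; the submitters' processing notes name mm10 and GRCm38. Here each position was counted once per feature on either strand. RefSeq genes of GRCm38.p6 (49939 on chromosomes 1 to 19, X and Y) have no exons in the table used, and strand came from the promoter table (27024 genes), so starts, ends and strand rest on these. LPKM was positions × 1e+09 / (length in bp × positions of the library).

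The main test was edgeR 4.0.16 (R 4.3.3) on counts of positions, with TMM, all positions as library size, at least 10 positions over the 4 libraries and a threshold of 0.05 after Benjamini-Hochberg adjustment over all features; each SE is the log2 ratio divided by the root of F. DESeq2 1.42.0 was an alternative. Single measures were compared with exact permutation tests. Those of the marrow pairs against the 10 others permuted pairs, not tissues, so the 2 pairs of a tissue were taken as independent. The scripts were tested on simulated data. Same-numbered libraries come from the same marrow sample, and the deviations of same-numbered libraries correlated with r = 0.0125 over 100 kb and 0.0995 over 1 Mb windows. The pairing comes from the labels, and the fit with the replicate block, which compares within samples, is an alternative given beside the results it changes. The same 2 animals gave both groups, and the main fit left this pairing out. In edgeR the spread of each feature is moderated toward that of all features tested. Its p-values therefore do not measure the spread between animals at a single locus alone. Python 3.11.15, pandas 2.3.3 and matplotlib 3.10.9 were used.

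The comparison, the gene lists and the rules were chosen with earlier results of these data known. Named were, per direction, the 10 genes or windows of smallest p past the threshold (5 for starts, ends and the tissue comparison), or the 3 of smallest p where fewer than 3 passed; of features overlapping by more than 50% of the shorter, only the first by p; of each list, the 3 members with most positions. Alternatives were other scaling, test, filter, depth, counting of reads, window size, gene sets and each library left out. RNA libraries were not used here. A few results of single genes are not reported here.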

Additional observations from a re-analysis of the deposited data

Results flagged for a closer look

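Olfm3 was set apart because its SSB to AP ratio in marrow differed from that in the 5 other tissues by -2.03 on the log2 scale (edgeR interaction, adjusted p = 0.00155). Both SSB libraries of marrow lay below the lowest of the 10 other SSB libraries (15.3 and 33.9 against 53.3 PPM, positions per 1000000 of the library). The call rests on 7 and 8 SSB positions. It was kept without sperm, without TMM and with the replicate block, and lost with PBMCs as the only other tissue, without SSB replicate 1 and without AP replicate 2, where the highest adjusted p was 0.921. It was also kept without SSB replicate 2 and without AP replicate 1. Groups of 2 libraries were too small to look for single outlying libraries.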

How the results depend on the processing

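Calls of single features depended on the test and depth. Genes called (2 in the main test) numbered 0 with DESeq2 and after thinning to equal depth, 30 with the replicate block, 22 without the low-count filter, 21 with all 24 libraries in the fit, 1 without loci in windows of over 3 times the median AP count and 1 with protein-coding genes only; leaving out each library gave 0 to 24. With the block, genes called higher went from 2 to 9 and genes called lower from 0 to 21. Windows called (83) numbered 0 with DESeq2 and after thinning, 53 with the block and 138 of 2616 as 1 Mb windows, and 1 to 92 with each library left out. Start windows (0 called) gave 3 after thinning, 1 with 500 bp on each side and 0 to 1 with a library left out; end windows gave 0 to 1. In the tissue comparison, genes (1) gave 0 with PBMCs only and 0 to 3 with a library left out, and windows (0) gave 1 without sperm and 0 to 1. The replicate block changed no count of calls for starts, ends or the tissue comparison.

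The ratio at starts (1.44) became 1.53 for protein-coding genes, 1.61 at 500 bp and 1.28 at 2000 bp, and that at ends turned from 1.007 to 0.975 for protein-coding genes. The share in genes gave 1.02 for protein-coding genes and 1.007 to 1.02 with each library left out, the share in gene-free windows 0.879 to 0.967, and the strand difference 2.21 to 3.05 points. The remaining alternatives of these 5 measures moved them by less than the spread between replicates. The cause of these changes was not tested. In the SSB against AP tests of single features, thinning, left-out libraries and narrow windows test fewer features. In the tissue comparison, leaving out a library tests the same 22861 genes and 25090 windows. Depth limits single features: 22861 of 49939 genes, and 1129 start and 458 end windows of 27024 genes with a strand, reached 10 positions over the 4 libraries. After thinning, 33 start windows reached that number, and 137 did with 500 bp on each side.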

Other observations

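A few features were called under alternatives only, and they were chosen after their values were seen. The start window of the predicted gene Gm33862 on chromosome 11 was lower in SSBs after thinning, without AP replicate 1 and with 500 bp on each side (log2 -1.15, -1.38 and -1.98). The start windows of Cdca3, a cell division gene, and Duxf3 were called after thinning (log2 5.07 and -2.86, adjusted p = 0.0432 each in edgeR). Only 33 start windows held enough positions to be tested after thinning, and 3 passed, Gm33862 included. Trim30a, an interferon-induced gene, was higher in SSBs when raw counts were summed (log2 1.30, adjusted p = 0.0331, edgeR). In the edgeR test with the replicate block, whose log2 ratios follow, the 30 genes called included Gse1, which had 239 and 107 SSB and 201 and 306 AP positions (log2 0.44), Vasp, an actin regulator, with 16, 10, 6 and 5 (log2 2.21), and Arid3a, with 25, 13, 8 and 19 (log2 1.58). Lower in SSBs with the block were Ntrk3, a neurotrophin receptor, with 78, 42, 162 and 239 (log2 -0.74), Lrrc7, with 53, 23, 115 and 160 (log2 -0.89), and Fgf10, with 4, 1, 23 and 22 (log2 -2.32).

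Across 1 Mb windows, which hold more positions, the SSB and AP libraries correlated with each other about as closely as the SSB replicates did. This is a description over 2616 windows, and the parts of base composition and copy number in it were not tested. Pearson's r was 0.969 between the SSB libraries, 0.987 between the AP libraries and 0.969 to 0.976 between assays. The log2 ratios of the 2 pairs correlated with r = 0.277 over these windows and 0.0844 over 100 kb windows.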
